A study of Mus musculus with 12 samples.

Results

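The variable (V) segments of the immunoglobulin genes were described in RNA from the mouse proximal thoracic aorta. They were taken as every listed gene whose symbol starts with Ighv, Igkv or Iglv, which gave 193 of 30130 listed genes. Of these, 96 belong to the heavy chain locus on chromosome 12, 95 to the kappa light chain locus on chromosome 6 and 2 to the lambda light chain locus on chromosome 16. Chronic proximal thoracic aortic aneurysms (cPTAA) came from 7 samples of male C56BL/6J mice given periaortic elastase and BAPN, an inhibitor of the lysyl oxidases that cross-link elastin and collagen. The 5 sham samples were proximal thoracic aortas of male C56BL/6J mice after sham surgery with normal water. The sources used here give neither ages nor the time between surgery and harvest. The cPTAA libraries are numbered 2, 3, 4, 6, 7, 9 and 12, and the sham libraries 1, 5, 8, 10 and 11.

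An antibody is built of a heavy chain and a kappa or lambda light chain. Each developing B cell joins one of many V segments to shorter joining segments (with a diversity segment in the heavy chain), and the joined exon is then spliced to a constant region. A B cell and its daughter cells therefore share the same heavy and light V segments, and plasma cells, the antibody-secreting descendants of B cells, carry very large amounts of this transcript. The number of V segments seen in a tissue, how evenly their reads are spread and which segments recur between samples are the usual descriptions of such a repertoire.

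The sequences below are those of segments that led the unevenly used libraries cPTAA 9, sham 5 and sham 11 and the library with the most V reads, cPTAA 12, with the near-identical neighbour of one of them and with the 2 lambda segments. Each is the last 120 coding bases of the germline segment, 5′ to 3′, from the GENCODE M21 transcripts (build GRCm38), and the capitals mark the last in-frame cysteine codon, which closes framework region 3 and opens the antigen-contacting loop CDR3. Coordinates are not printed, since the submitters' processing notes name the build GRCm39. The leading heavy and kappa segments of the library cPTAA 9 come first, and Igkv13-84, the nearest relative of Igkv13-85, follows them.
Ighv14-2: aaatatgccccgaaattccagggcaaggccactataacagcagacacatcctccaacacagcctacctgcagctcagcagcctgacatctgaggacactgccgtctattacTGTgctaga
Ighv1-7: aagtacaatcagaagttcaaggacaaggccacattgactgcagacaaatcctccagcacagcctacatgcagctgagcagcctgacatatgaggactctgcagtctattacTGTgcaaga
Igkv13-85: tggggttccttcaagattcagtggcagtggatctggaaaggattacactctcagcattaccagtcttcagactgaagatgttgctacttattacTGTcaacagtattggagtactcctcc
Igkv13-84: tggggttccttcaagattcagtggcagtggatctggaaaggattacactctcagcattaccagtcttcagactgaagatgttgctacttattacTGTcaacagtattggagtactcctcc
Igkv12-44: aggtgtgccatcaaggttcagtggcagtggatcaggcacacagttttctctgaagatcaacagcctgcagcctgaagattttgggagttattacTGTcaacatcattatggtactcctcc
The leading segments of cPTAA 12 were these.
Ighv1-80: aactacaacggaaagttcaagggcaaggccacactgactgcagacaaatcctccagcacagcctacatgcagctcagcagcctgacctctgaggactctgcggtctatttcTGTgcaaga
Igkv3-2: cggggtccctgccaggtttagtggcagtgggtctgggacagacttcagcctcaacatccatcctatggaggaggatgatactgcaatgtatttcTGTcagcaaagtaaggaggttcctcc
Those of sham 5 and the leading kappa segment of sham 11 were these.
Ighv4-1: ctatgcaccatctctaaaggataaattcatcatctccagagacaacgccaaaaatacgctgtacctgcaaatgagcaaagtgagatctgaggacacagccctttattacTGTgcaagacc
Igkv2-109: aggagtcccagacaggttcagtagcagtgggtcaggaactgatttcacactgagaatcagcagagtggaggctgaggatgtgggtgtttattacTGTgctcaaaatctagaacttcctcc
Igkv4-74: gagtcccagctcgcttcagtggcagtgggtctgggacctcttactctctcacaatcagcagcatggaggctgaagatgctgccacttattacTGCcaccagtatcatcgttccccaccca
The 2 lambda segments were these.
Iglv1: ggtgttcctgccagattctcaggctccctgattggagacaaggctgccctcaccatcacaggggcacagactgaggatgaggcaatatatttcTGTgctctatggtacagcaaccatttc
Iglv2: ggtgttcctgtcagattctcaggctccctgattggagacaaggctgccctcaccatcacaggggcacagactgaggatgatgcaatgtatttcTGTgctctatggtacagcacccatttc
The 120 bases of Igkv13-85 and Igkv13-84 shown are the same, and the identity of this pair runs through the last 193 coding bases. Over the whole coding sequence they differ by 13 edits (96.3% identity). V segments are alike in general: over the 186 members with a coding sequence, the identity to the nearest other segment had a median of 94.9% and a range of 67.7% to 99.7%, and 88 stood at 95% or more. A stretch of 100 bases shared with another segment was present in 66 of them. The sources used here do not say how reads that match several segments were counted, so the values of near-identical segments such as Igkv13-85 and Igkv13-84 are uncertain.

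Recovered totals ranged from 14078885 to 17493428 reads per library, and the V segments held 24270 reads in the cPTAA libraries and 1308 in the sham libraries. All 193 members were matched by symbol to the GENCODE M21 annotation, which holds 216 functional V genes of the 3 loci, 186 of them listed here. The other 7 members are annotated as pseudogenes and held 31 reads together (0.121% of V reads). A listed gene had at least 2 reads over the 12 libraries, so segments below that are absent from the table. The samples are numbered one by one in their titles, which name no animals, so p-values measure only the spread between these samples, which may be technical. Shares of reads are given with their Wilson 95% interval; reads of one transcript are not independent molecules, so such an interval covers counting error alone.

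V segment RNA was more abundant in every aneurysm library than in every sham library. Scaled to 1000000 reads of the library (CPM), V reads stood at 35.4, 279, 106, 49.2, 205, 155 and 705 in cPTAA 2, 3, 4, 6, 7, 9 and 12. In sham 1, 5, 8, 10 and 11 they were 22.4, 16.8, 32.1, 5.37 and 6.53. The medians were 155 and 16.8, and the groups did not overlap, although cPTAA 2 at 35.4 stood close to sham 8 at 32.1. In bulk tissue, more cells of a type and more RNA per cell cannot be told apart. Heavy chain V reads numbered 204, 1754, 525, 189, 1014, 724 and 3800 in the cPTAA libraries, against 78, 97, 177, 22 and 9 in sham. Kappa V reads numbered 376, 2436, 997, 548, 1864, 1661 and 6082, against 125, 157, 258, 55 and 82. As unscaled read numbers both chains separated the groups, but after scaling only kappa did. The summed normalised read count of kappa segments was at least 325 in cPTAA and at most 263 in sham. For heavy chain segments the groups overlapped, with a lowest cPTAA sum of 176 and a highest sham sum of 180. Lambda V reads overlapped even unscaled. They numbered 27, 417, 118, 59, 292, 323 and 860 in cPTAA and 168, 27, 41, 11 and 1 in sham, with sham 1 above 3 of the aneurysm libraries.

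V reads relative to constant region reads overlapped between the groups. There were 14.6, 17.7, 12.8, 8.06, 13.3, 7.40 and 12.8 V reads per 100 constant region reads in the cPTAA libraries and 18.1, 18.5, 15.2, 12.4 and 14.1 in sham. The lowest values were those of cPTAA 9 and cPTAA 6. Lambda took 6.70% to 16.3% of light chain V reads in the 7 cPTAA libraries (median 12.4%). In sham 5, 8 and 10 the share was 14.7%, 13.7% and 16.7%. It was 57.3% in sham 1 (interval 51.6% to 62.9%) and 1.205% in sham 11, where a single lambda read was counted.

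More segments were detected in aneurysm than in sham aorta. With detection as at least 1 read, 74, 156, 106, 100, 125, 65 and 170 of the 193 members were detected in cPTAA 2, 3, 4, 6, 7, 9 and 12. In sham 1, 5, 8, 10 and 11 the numbers were 38, 25, 64, 19 and 10. The medians were 106 and 25, and the groups were separated by 1 segment only, between cPTAA 9 (65) and sham 8 (64). At equal library depth, 14078885 reads, they overlapped, with 62.3 segments expected in cPTAA 9 and 63.2 in sham 8. Heavy chain segments alone overlapped, with 35, 75, 53, 43, 60, 23 and 84 in cPTAA and 14, 7, 31, 6 and 2 in sham. Kappa segments alone did not overlap, with 37, 79, 51, 55, 63, 40 and 84 against 22, 16, 31, 12 and 7. With at least 3 reads asked for, the medians were 79 and 15, and with at least 10 reads 37 and 5.

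The number detected depends on the V reads available, which differed from 88 in sham 10 to 10742 in cPTAA 12. The number expected in 88 V reads drawn from each library was therefore computed. It was 36.1, 46.6, 39.8, 43.2, 37.0, 15.3 and 47.3 in the cPTAA libraries and 24.4, 17.5, 35.4, 19.0 and 9.91 in sham. At this equal depth the medians were 39.8 and 19.0. Of the aneurysm libraries, 6 stood above every sham library. The other one, cPTAA 9, stood below sham 1, 5, 8 and 10. The difference between the medians was 20.8 segments at equal V depth, against 81 without it.

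**Figure D1:**
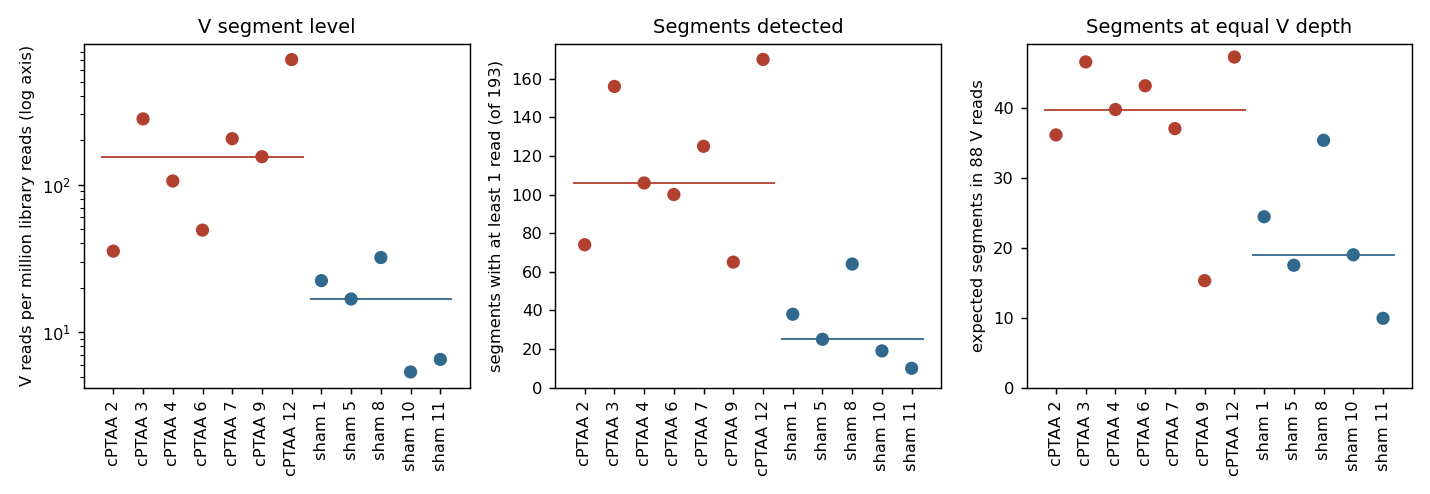
Points are the 12 libraries (red cPTAA, blue sham) and lines are group medians. The left panel shows V reads in CPM on a log axis, the middle panel the segments with at least 1 read, and the right panel the segments expected in 88 V reads, where cPTAA 9 falls to 15.3 while the other cPTAA libraries lie between 36.1 and 47.3.

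Usage was spread over many segments in 6 of the 7 aneurysm libraries, with no heavy chain segment above 17.7% of heavy V reads and no kappa segment above 22.1% of kappa V reads. The most read heavy segment was Ighv1-9 in cPTAA 2 (15.2%), Ighv14-2 in cPTAA 3 (10.3%), Ighv1-85 in cPTAA 4 (17.7%), Ighv14-3 in cPTAA 6 (13.2%), Ighv5-17 in cPTAA 7 (11.7%) and Ighv1-80 in cPTAA 12 (8.66%). The most read kappa segment was Igkv17-127 in cPTAA 2 (17.0%), Igkv3-4 in cPTAA 3 (11.7%), Igkv17-121 in cPTAA 4 (22.1%), Igkv1-117 in cPTAA 6 (10.04%), Igkv6-23 in cPTAA 7 (14.6%) and Igkv3-2 in cPTAA 12 (10.5%). The leading segment differed in nearly every library: over the 12 libraries there were 11 distinct leading heavy segments and 12 distinct leading kappa segments. Ighv14-2, which led in cPTAA 3 and cPTAA 9, was the only one to lead more than once.

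cPTAA 9 stood apart from the other aneurysm libraries. Ighv14-2 held 470 of its 724 heavy V reads (64.9%, interval 61.4% to 68.3%), and with the 165 reads of Ighv1-7 the leading pair held 87.7%. Among its 1661 kappa V reads, Igkv13-85 held 751 (45.2%, interval 42.8% to 47.6%) and Igkv12-44 held 609, together 81.9%. In the remaining 6 aneurysm libraries the leading pair held between 16.2% and 28.4% of heavy V reads and between 19.5% and 30.7% of kappa V reads. Igkv13-85 had 0, 11, 2, 2, 0 and 23 reads in cPTAA 2, 3, 4, 6, 7 and 12 and was listed at 0 in all sham libraries. Its neighbour Igkv13-84, which ends in the same sequence, had 0 reads in cPTAA 9 and between 2 and 13 in the other aneurysm libraries. In sham, Igkv13-84 had 1 read in sham 8 and 4 in sham 11. The constant regions of cPTAA 9 also differed in make-up: Ighg2c and Ighg1, which encode IgG classes made after class switching, held 50.2% and 32.0% of its 19475 heavy constant reads, and Ighm, which encodes IgM, 13.02%. Ighm held between 45.8% and 85.6% in the other aneurysm libraries and between 69.2% and 94.97% in sham.

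In sham 1, 5, 10 and 11, between 1 and 4 segments held at least 50% of the V reads, though the reads were few. In sham 8 this took 9 segments, as in cPTAA 2 and cPTAA 7. The kappa reads of sham 1 were also spread, with 24.8% in the leading pair. In sham 5, Ighv4-1 held 63 of 97 heavy V reads (64.9%, interval 55.0% to 73.7%), and Igkv2-109 held 74 of 157 kappa V reads (47.1%). In sham 11, Igkv4-74 held 64 of 82 kappa V reads (78.0%, interval 67.9% to 85.6%), and Ighv1-55 held 6 of the 9 heavy V reads. In sham 1, Ighv8-5 led the heavy chain with 27 of 78 reads, and Igkv4-59 led the kappa chain with 16 of 125. The lambda segment Iglv1, with 161 reads, was the most read segment of that library. Sham 8 was led by Ighv1-76 (38 of 177 reads) and Igkv6-32 (67 of 258), and sham 10 by Ighv14-4 (7 of 22) and Igkv4-57 (17 of 55). Ighv8-5 and Ighv1-76 thus had more reads in one sham library than in any aneurysm library, where they reached 8 and 25 reads, and Igkv4-74 reached 21 there.

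**Figure D2:**
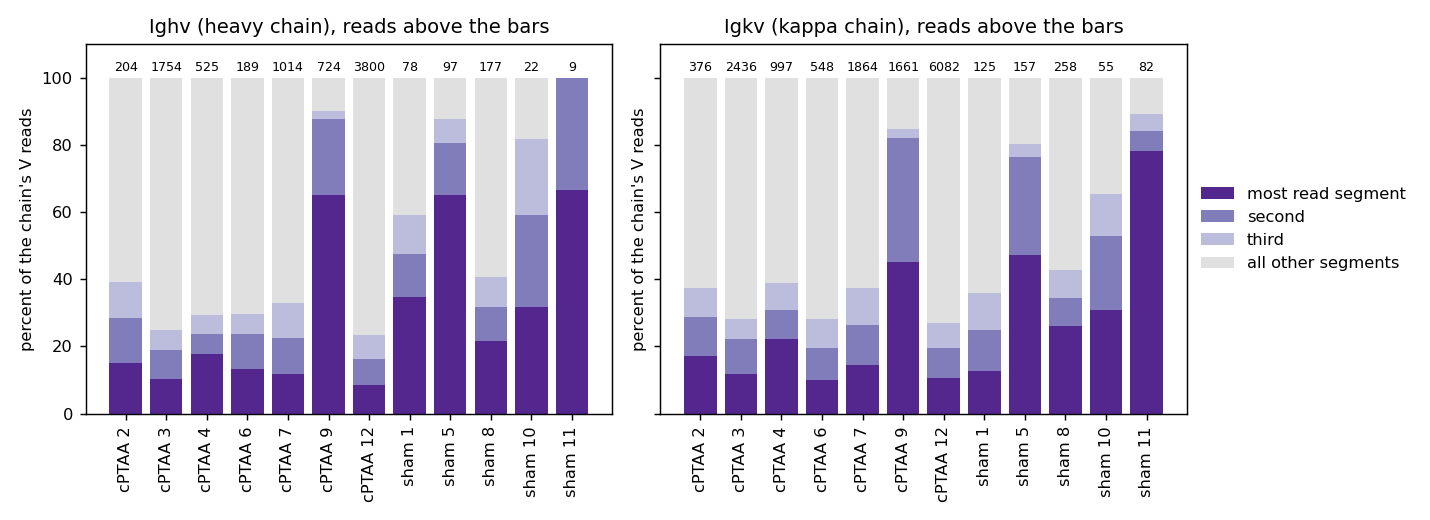
Bars give the percent of heavy (left) and kappa (right) V reads held by the 3 most read segments of each library, in purple shades, with the rest in grey and the number of reads above each bar. The leading pair fills 87.7% and 81.9% of the bars of cPTAA 9, and 80.4% and 76.4% of those of sham 5.

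Evenness was measured with Pielou's index, which is 1 when all detected segments have equal reads and falls towards 0 when 1 segment dominates. Over the V segments of the 3 loci it was 0.845, 0.833, 0.819, 0.862, 0.780, 0.531 and 0.832 in cPTAA 2, 3, 4, 6, 7, 9 and 12. In sham 1, 5, 8, 10 and 11 it was 0.694, 0.713, 0.850, 0.868 and 0.538. The medians were 0.832 and 0.713, and the ranges overlapped, with the lowest value of all in cPTAA 9 and the highest in sham 10. The difference of 0.119 between the medians did not hold within the chains: it was -0.00875 for the heavy chain alone and 0.00214 for the kappa chain alone. Some sham values within the chains rest on few reads. The heavy chain index of 0.918 in sham 11 came from 9 reads of 2 segments, and 0.868 in sham 10 from 22 reads of 6 segments. Equal evenness within the chains is therefore not shown. Without sham 1, without sham 5 or without sham 11 the difference over all V segments fell to between 0.0508 and 0.0606.

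The effective number of segments, the unbiased inverse Simpson index, gives the number of equally used segments that would yield the same chance of drawing the same segment again. It was 26.3, 40.8, 25.4, 34.9, 25.7, 5.70 and 45.4 in the cPTAA libraries and 4.93, 6.46, 22.3, 11.2 and 2.03 in sham, with medians of 26.3 and 6.46. All aneurysm libraries but cPTAA 9 lay above the highest sham library, sham 8. For the heavy chain the effective number was 14.7, 24.6, 17.9, 22.7, 16.5, 2.11 and 25.6 in cPTAA, and 6.31, 2.22, 12.6, 4.91 and 2 in sham. For the kappa chain it was 13.3, 21.9, 11.97, 22.3, 13.6, 2.93 and 23.4, and 14.4, 3.24, 9.91, 6.16 and 1.63. Among kappa segments sham 1 thus lay above cPTAA 2, 4, 7 and 9. At least 50% of the V reads was held by 9, 16, 10, 12, 9, 2 and 16 segments in the aneurysm libraries and by 2, 3, 9, 4 and 1 segments in sham.

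**Figure D3:**
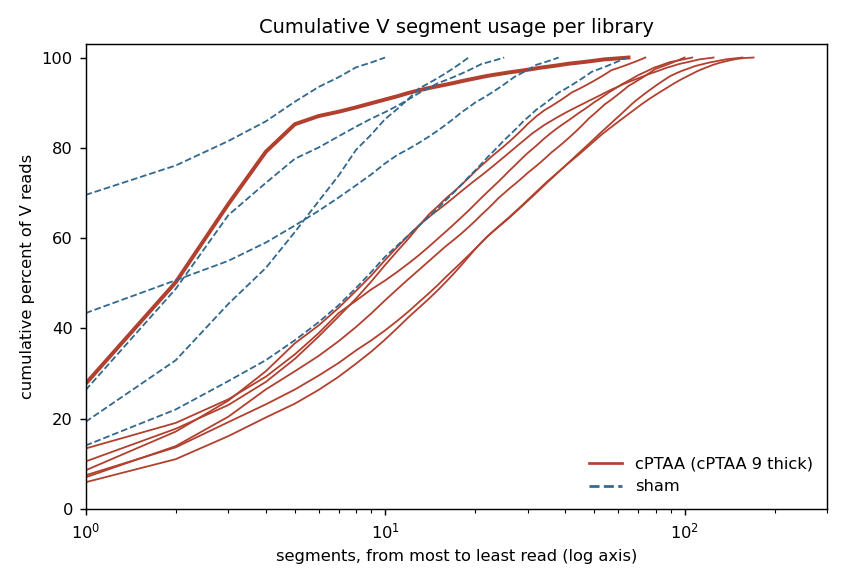
Each line is a library (solid red cPTAA, dashed blue sham) and gives the cumulative percent of V reads over segments ordered from most to least read, on a log axis. The thick line of cPTAA 9 reaches 50% at 2 segments, among the sham lines, while the other aneurysm lines reach it at 9 to 16 segments.

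V segments fall into families by sequence, and their place along the locus bears on how often they are joined. Ighv1, the largest heavy chain family with 47 members listed, held 29.6% to 70.6% of heavy V reads in the aneurysm libraries (median 54.2%) and 21.8% to 66.7% in sham (median 34.0%). Ighv14 held 1.33% to 64.9% in cPTAA, with the top value in cPTAA 9. It was listed at 0 in 4 sham libraries and held 31.8% in sham 10, where that share was 7 reads. Igkv4, the largest kappa family with 24 members, held 2.23% to 21.9% of kappa V reads in cPTAA (median 15.5%) and 1.91% to 81.7% in sham (median 17.6%). Igkv3, with 9 members, held 3.01% to 24.0% in cPTAA (median 13.5%) and up to 7.20% in sham (median 1.94%). The ranges of each of these 4 families overlapped between the groups.

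With the functional heavy chain segments split by position into 3 parts of 37 or 38 segments, the part nearest the joining segments held 19.2% to 67.1% of heavy V reads in cPTAA (median 28.4%). In sham it held 24.3% to 64.9% (median 34.7%). The middle part held 27.0% to 42.2% in cPTAA and up to 31.8% in sham, and the most distant part 5.66% to 50.3% and 23.7% to 66.7%. Kappa segments were likewise read from all 3 parts of their locus in every aneurysm library, with medians of 28.7%, 22.9% and 42.0% from nearest to most distant. In cPTAA 9 the middle part held 85.0%, which is where Igkv13-85 and Igkv12-44 lie. No part of either locus separated the groups.

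Aneurysm libraries shared more of their segments with each other than sham libraries did. Of the 193 members, 92 were detected in both groups, 99 in aneurysm while listed at 0 in sham, and 2 (Ighv8-7 with 3 reads and Igkv1-35 with 4) the other way round. The 92 are 97.9% of the 94 segments detected in sham and 48.2% of the 191 detected in aneurysm. In all 7 aneurysm libraries 26 segments were detected, and they held 40.5% of the aneurysm V reads. Detection in 1 aneurysm library alone was seen for 19 segments, which held 0.396%. In sham, 0 segments were detected in all 5 libraries and 4 in 4 libraries. These 4, Igkv1-117, Igkv8-30, Iglv1 and Iglv2, were also in all 7 aneurysm libraries, and none was in all 12. A segment not detected in sham was not detectable at this depth, since 0 reads allow up to 3 over the group.

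Sharing was weighted by reads with the Morisita-Horn overlap, which is 0 when 2 libraries share no segment and 1 when their usage is the same. The 21 pairs of aneurysm libraries had a median of 0.408 (range 0.0617 to 0.654), and the highest pair was cPTAA 7 with cPTAA 12. The 10 pairs of sham libraries had a median of 0.107 (range 0 to 0.368), and the 35 mixed pairs one of 0.228. The sham median varied between 0.0503 and 0.169 with each sham library left out in turn, and the aneurysm median between 0.383 and 0.464. The share of detected segments common to a pair (Jaccard index) had medians of 0.496, 0.120 and 0.168 for aneurysm, sham and mixed pairs. Pairs share libraries and are not independent, and both indices fall when few reads are sampled. With a Morisita index that corrects for sampling, the medians were 0.418 for aneurysm and 0.110 for sham pairs.

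cPTAA 9 overlapped least with its group. Its median overlap with the other aneurysm libraries was 0.115, while those of the remaining 6 lay between 0.387 and 0.519. Sham 11 had a median of 0.00798 with its group and shared no segment with sham 10. Even in the libraries with broad usage, many segments owed most of their reads to 1 library. Of the 93 segments with at least 50 reads in aneurysm, 60 had over 50% of them in 1 library, which was cPTAA 12 for 40 segments, cPTAA 3 for 8, cPTAA 7 for 5 and cPTAA 9 for 3. cPTAA 12 held 44.3% of the aneurysm V reads.

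**Figure D4:**
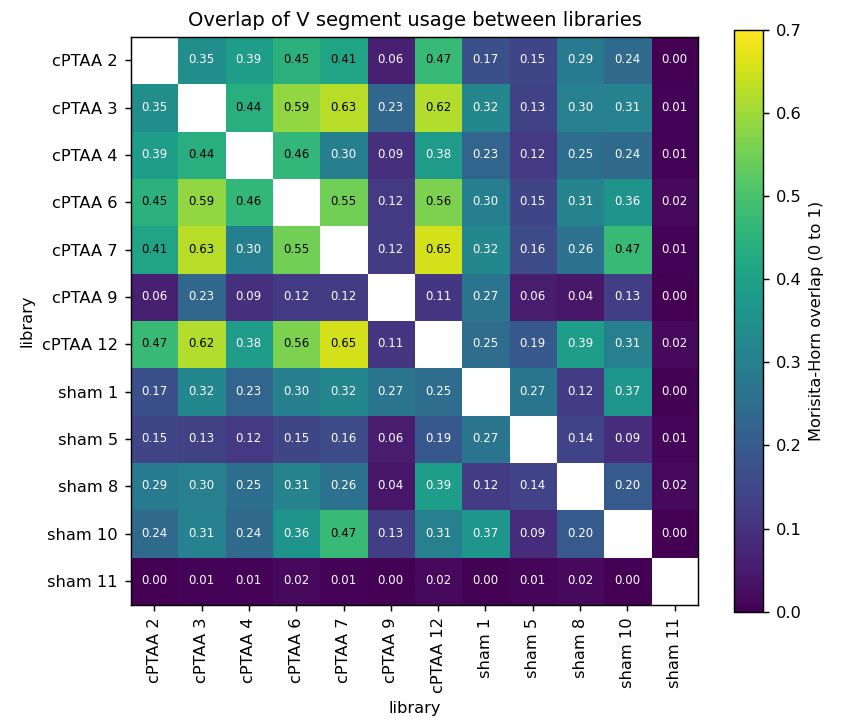
The grid gives the Morisita-Horn overlap of V usage for each pair of the 12 libraries, from 0 (dark) to about 0.65 (light). The 6 aneurysm libraries other than cPTAA 9 form the bright block, and sham 11 is dark against every library.

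The level of single segments was compared between the groups with limma over all 21415 tested genes. Of the 193 members, 82 passed the filter on low values (33 Ighv, 47 Igkv and 2 Iglv), 67 of them through the aneurysm libraries alone. 35 rose in cPTAA (11 Ighv, 23 Igkv and Iglv1) and 0 fell, at a limma adjusted p below 0.05, where 12.9% of all tested genes rose and 11.1% fell. At an unadjusted limma p below 0.05, 55 of the 82 were higher and 0 lower, against 17.9% and 17.8% of all tested genes, and edgeR and DESeq2 also called 0 lower. Since most members could pass the filter only where aneurysm was high, these counts describe the members that passed and do not speak for the rest. Without the filter, 32 of the 193 rose, against 8.34% of all genes. The median log2 fold change of those that passed was 2.36, or 2.63 with the segments at 0 in sham set at their lower bound, against -0.0537 over all tested genes. The count varied with the libraries kept. It was 22, 26 and 24 without cPTAA 3, 7 or 12, 25, 20 and 19 without sham 5, 10 or 11, and 41 without cPTAA 9. Leaving out a library also makes its group smaller and applies the filter to fewer libraries, and these effects cannot be told apart here.

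The test tool also mattered for these sparse segments. The edgeR quasi-likelihood test, with its own filter, tested 17 members and called 10 higher (16.6% of all genes it tested), and all 10 were among the 35. DESeq2 tested 131 and called 65 (14.7% of all genes it tested), 33 of them among the 35. Over all 193 members, the mean normalised read count was higher in cPTAA for 186 and higher in sham for 7. The same count over all listed genes was not made. For many members the direction rests on few reads: 19 were detected in 1 library of the 12. Of the 35 segments that rose, 12 were at 0 in all sham libraries. Without the libraries richest in Dntt, a gene of developing lymphocytes (cPTAA 3 and sham 1), 16 of 58 tested members rose, against 35 of 82 with all libraries. Both groups were also smaller there, and the share of all tested genes that rose in that fit is not given here.

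In 6 of the 82 members tested (7.32%) every aneurysm library was above every sham library, a share no higher than the 8.02% of all tested genes, so this count sets the members apart from other genes in no way. They were Ighv1-81, Igkv1-110, Igkv3-2, Igkv6-15, Igkv6-17 and Igkv8-27. The reverse was seen in 0 members, against 4.95% of tested genes. Igkv1-110 had 31, 96, 82, 48, 28, 25 and 165 reads in cPTAA 2, 3, 4, 6, 7, 9 and 12 and 5, 4, 7, 0 and 0 in sham 1, 5, 8, 10 and 11. It was well represented in all aneurysm libraries, cPTAA 9 included. Its normalised read count was 63.5 ± 46.8 in cPTAA (SD, n = 7) and 3.26 ± 3.19 in sham (SD, n = 5), and it rose by 4.11 ± 0.64 on the log2 scale (SE, limma adjusted p = 0.000321). Igkv6-15 had 8, 66, 27, 18, 49, 3 and 60 reads in aneurysm and 2 reads in sham, all in sham 5. It rose by 4.16 ± 0.68 (limma adjusted p = 0.000431). Igkv3-2 had 30, 70, 5, 10, 218, 20 and 639 reads against 0, 0, 1, 3 and 0, so that cPTAA 12 and cPTAA 7 held most of them. It rose by 4.81 ± 0.97 (limma adjusted p = 0.0022).

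Igkv3-2, Igkv6-15, Igkv1-110, Ighv1-7, Igkv1-117 and Ighv1-26 are the 6 that the naming rule took by size of change on the log2(value + 1) scale, an order that the scale sets, and Igkv17-127 was the leading kappa segment of cPTAA 2. Ighv1-7 had 0, 101, 29, 1, 6, 165 and 55 reads in aneurysm and 0 in all sham libraries, which makes its level over the pooled reads of the group at least 82.5-fold higher, or 52.4-fold without cPTAA 9 (limma adjusted p = 0.0152). Igkv1-117, detected in 11 of 12 libraries, had 17, 128, 73, 55, 196, 49 and 443 reads against 3, 2, 22, 12 and 0, and rose by 3.98 ± 0.82 (limma adjusted p = 0.0026). Ighv1-26 had 9, 151, 19, 1, 37, 3 and 261 reads against 4 reads in sham 5 and 0 in the other sham libraries, and rose by 3.91 ± 1.05 (limma adjusted p = 0.0139), a call lost without cPTAA 3 and sham 1 together. Its groups overlapped through cPTAA 6 and cPTAA 9. Igkv17-127 had 64, 26, 20, 10, 11, 0 and 42 reads, with the 0 in cPTAA 9, and 0 in all sham libraries. Its pooled level was at least 39.97-fold higher (limma adjusted p = 0.00217).

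The segments that led cPTAA 9 did not all pass the test. Igkv12-44 had 0, 76, 2, 1, 4, 609 and 60 reads in cPTAA 2, 3, 4, 6, 7, 9 and 12 and 0 in sham, at least 174-fold higher in the pooled reads and 39.1-fold without cPTAA 9. Its limma adjusted p was 0.0514, and it ranged from 0.000478 (DESeq2) to 0.0941 (without sham 10) over the 11 other settings, 5 of them below 0.05. Igkv13-85 was at least 182-fold higher in the pooled reads and 10.4-fold without cPTAA 9, which gave 751 of 789 reads, and its limma adjusted p was 0.116. Ighv14-2 was listed at 0 in all sham libraries and was at least 157-fold higher in the pooled reads, or 57.4-fold without cPTAA 9, which gave 470 of 680 reads. It was among the 111 members that did not pass the filter, as was Igkv3-4, with 0, 285, 0, 23, 206, 1 and 198 reads and a pooled level at least 165-fold higher. These 111 members held 4854 reads, 19.0% of all V reads, with a median of 16 reads each. Of the segments leading sham libraries, Ighv4-1 differed by 0.18 ± 1.23 on the log2 scale (limma adjusted p = 0.935), Igkv2-109 by -0.40 ± 1.31 (0.861) and Igkv6-32 by 0.89 ± 1.15 (0.622), each with a standard error larger than the difference.

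The lambda segments differ by 11 edits over the coding sequence (96.9% identity). Iglv1, the most read V segment of all, had 23, 345, 77, 56, 272, 313 and 549 reads in aneurysm and 161, 20, 11, 11 and 0 in sham. It rose by 3.33 ± 1.04 (limma adjusted p = 0.0302), although sham 1 exceeded cPTAA 2, 4 and 6. The call was lost in 8 of 18 other settings: with edgeR (adjusted p = 0.091), with DESeq2 (0.09) and without cPTAA 3, 7 or 12 or sham 8, 10 or 11 (limma adjusted p from 0.0516 to 0.0825). Iglv2 had 4, 72, 41, 3, 20, 10 and 311 reads against 7, 7, 30, 0 and 1, a difference of 2.07 ± 1.05 (limma adjusted p = 0.174). Iglv1 took 63.8% to 96.9% of lambda V reads in the aneurysm libraries, the latter in cPTAA 9.

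**Figure D5:**
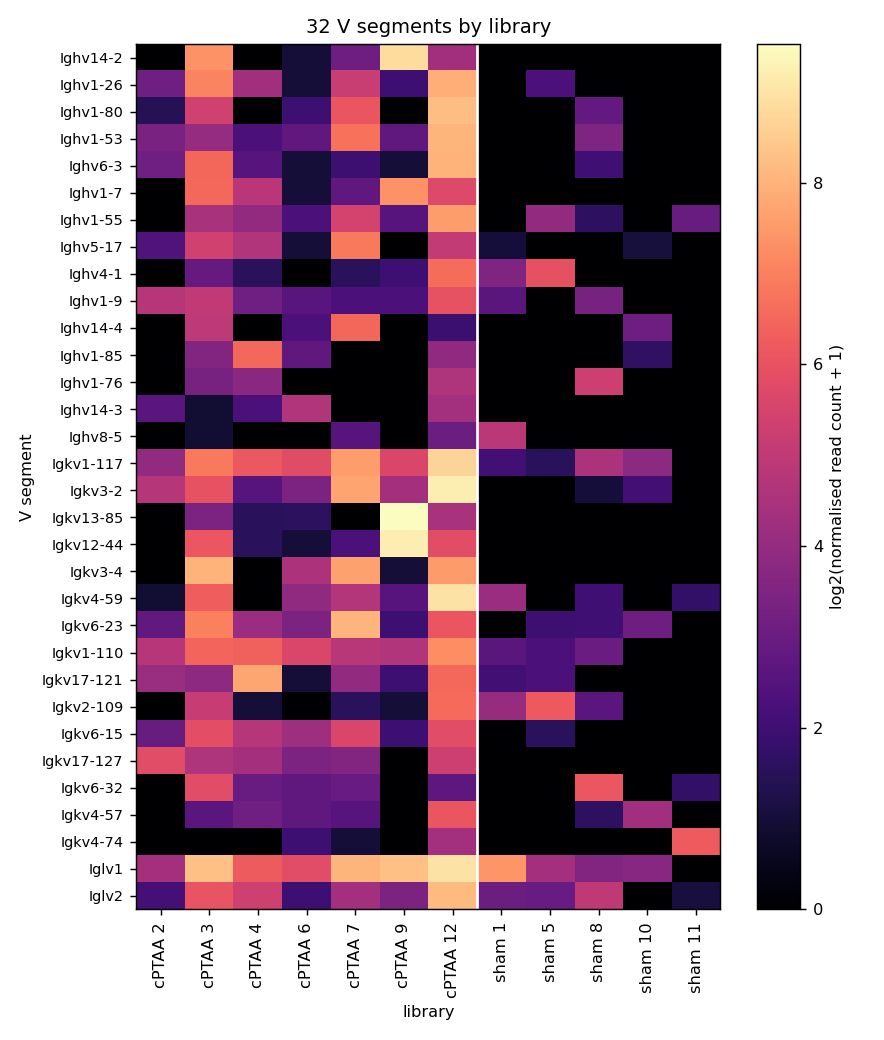
Colour gives log2(normalised read count + 1) of the 32 segments chosen by the naming rule, in rows by chain and total reads, over the 7 cPTAA libraries left of the white line and the 5 sham libraries right of it. Rows such as Igkv1-110 and Iglv1 are lit across the aneurysm libraries, while Igkv13-85 and Igkv12-44 are brightest in cPTAA 9 and Igkv4-74 in sham 11.

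The genes expressed with V segments were measured from lists chosen with earlier results known. Among all tested genes 12.9% rose and 11.1% fell. Of 13 listed immunoglobulin constant genes, 11 were tested and all 11 rose, among them Igkc, the kappa constant region, by 3.77 ± 0.62 (limma adjusted p = 0.000498). Ighg1 had the largest log2 fold change, 8.003 ± 0.946 (limma adjusted p = 3.58e-05), from 6 reads over the sham libraries. The joining segments, which are very short, had few reads, and 1 of 6 tested (Igkj5) rose, a share of 16.7% near that of all genes. B cell markers rose for 11 of 12 genes, with Cd22, an inhibitory co-receptor, at 3.76 ± 0.51 and Cr2, complement receptor 2, short of the threshold (limma adjusted p = 0.0521). Their summed normalised read count ranged from 293 to 4931 in cPTAA and from 64.0 to 199 in sham. Plasma cell markers rose for 7 of 11. Jchain, which joins antibody multimers, rose by 2.90 ± 0.63, while Mzb1, Tnfrsf17, Irf4 and Tent5c did not pass. Of these, Irf4 and Tent5c had negative log2 fold changes, -0.83 and -0.11.

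T cell receptor V segments, the corresponding segments of T cells, gave far fewer reads. Of 52 listed, 11 were tested and 1 rose (9.09%, below the 12.9% of all tested genes), Trdv4 (2.74 ± 0.57, limma adjusted p = 0.00288). They had 57 to 163 reads per aneurysm library and 5 to 41 per sham library, with 13 to 35 and 3 to 19 segments detected. All 8 T cell markers rose. Of 10 tested genes of germinal centres and lymphoid tissue, 9 rose, with Cxcl13, which attracts B cells, at 2.92 ± 0.43, and Bcl6 fell.

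Markers of other tissue moved between libraries as well. Of the 5 tested genes of recombination and mutation 0 rose, and of the thymocyte list 0 rose and 1 (Cd1d1) fell. These lists are too short to set such counts apart from the 12.9% of all tested genes that rose and the 11.1% that fell. Dntt, which adds bases at V segment joins in developing lymphocytes, had 265 reads in cPTAA 3 and 67 in sham 1, against at most 25 in every other library. Rag1, which encodes a subunit of the recombinase that starts V segment joining, had 834 reads in cPTAA 3, 105 in sham 1, 75 in sham 5 and 82 in cPTAA 12. All 5 brown adipocyte markers fell, with a summed level of 981 to 42192 in cPTAA and 30347 to 98953 in sham, and of 5 aortic smooth muscle markers 1 (Myh11) fell. Summed smooth muscle markers stood at 63369 to 250541 in cPTAA and 198216 to 274481 in sham, so that every library held them. The part of these tissue differences in the V segment values was not tested.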

How the data were processed

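RNA of 7 cPTAA and 5 sham samples was sequenced after oligo-dT capture, fragmentation and random-hexamer priming, per the labels' protocols. The submitters' processing notes name the aligner HISAT2 2.0.5, the counter featureCounts 1.5.0-p3, StringTie and the build GRCm39. The sources used here do not give the strand setting, the handling of reads matching several genes or the scaling. The values the authors deposited are a signal per gene, called normalised read count here. Checked on the values, the deposited signal is a whole number of reads times 1 factor per library (100% of values whole within 0.02 reads, largest deviation 0.000311), and those recovered reads gave all usage measures. No pair of libraries within a group agreed within counting noise.

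The members and gene lists were chosen with earlier results of these data known. Usage measures are descriptions without a test. The test of levels was limma 3.58.1 under R 4.3.3, trend on, fitted to log2(value + 1), a scale that understates changes of low genes. It covered the 21415 genes that reached 1 in 5 or more libraries, and p-values were adjusted over all of them by Benjamini-Hochberg. Lower bounds against sham libraries at 0 use a floor of 3 reads over the group. Alternatives were a pseudocount of 0.1, no filter, TMM scaling, edgeR 4.0.16 and DESeq2 1.42.0 on the recovered reads, other detection minimums and depths, and leaving out each library. On the recovered reads edgeR called 2622 genes higher and 2261 lower of 15839 tested. limma was also run on simulated data for cPTAA against sham with 200 altered genes. It found 38.5% of them at 2-fold (22885 genes in the fit) and 100% at 4-fold (22908 genes). In these runs 6 and 9 unaltered genes were called too. The simulation set 1 spread for all genes and altered only genes above a minimum of mean reads. It therefore cannot show what share is found among sparse V segments or those carried by 1 library.

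Segments were named by a rule: the 6 Ighv, the 6 Igkv and each Iglv with the most reads, the leading Ighv and Igkv of each library, and the 6 largest changes with an adjusted p below 0.05 and a group mean of 10 or more. Segments named outside it were chosen after their values were seen. A motif count in V segment promoters was planned and not run, because no V segment was matched in the promoter table used.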

Additional observations from a re-analysis of the deposited data

Results flagged for a closer look

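In 85 groups of values examined for a sample far from the others of its group, 19 stood out. The rule flags about 1 in 20 groups of normally spread values, a rate that does not hold where most values are 0. A segment with reads in 1 sham library alone is flagged at any level, and some were named for leading that library. The number of flags is thus not set against that rate. Of the 19 flags, 7 concern usage as a whole. cPTAA 12 was the highest aneurysm library in V reads (705 CPM, next 279). In sham 1, 57.3% of light chain V reads were lambda, against at most 16.7% in the other sham libraries. cPTAA 9 was the lowest aneurysm library in segments expected in 88 V reads (15.3). It was also lowest in Pielou's evenness over all V segments (0.531), over heavy segments (0.387) and over kappa segments (0.429), and in its median Morisita-Horn overlap with its group (0.115).

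The other 12 are single segments, given as log2(normalised read count + 1). In 11 of them 1 sham library stood above the rest of its group. Ighv1-53, Ighv1-76, Ighv1-80, Ighv6-3 and Igkv6-32 did so in sham 8, at 3.48, 5.31, 2.83, 2.02 and 6.11. Ighv1-26 and Igkv6-15 did so in sham 5, at 2.29 and 1.56. Ighv1-85 and Ighv14-4 did so in sham 10, at 1.66 and 3.10. Ighv8-5 stood at 4.88 in sham 1 and Igkv4-74 at 6.24 in sham 11. The remaining sham libraries were at 0 for all of these except Igkv6-32, which had 2 reads in sham 11. The last was Igkv17-127, at 0 in cPTAA 9 and above 0 in the 6 other aneurysm libraries.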

How the results depend on the processing

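Of the 35 members that rose, the count was 40 with a pseudocount of 0.1, 32 without a filter, 39 with TMM scaling, 10 with edgeR (17 members tested) and 65 with DESeq2 (131 tested); it was 19 to 41 with each library left out, and 0 fell under every setting run. Added after seeing the data, leaving out cPTAA 3 and sham 1 together gave 16 (58 tested). The difference in median segments detected, 81, was 32 with at least 10 reads, 20.8 at equal V reads, 39 for kappa alone and 74.5 to 90.5 with each library left out. The difference in Pielou's evenness, 0.119, turned to -0.00875 for the heavy chain alone and was 0.0508 to 0.129 with each library left out. The difference in effective number, 19.9, was 17.5 to 24.2 with each library left out. It was smaller within the chains, with medians of 17.9 in cPTAA and 4.91 in sham for the heavy chain alone. For the kappa chain alone the medians were 13.6 and 6.16. The median overlap was 0.383 to 0.464 for aneurysm pairs and 0.0503 to 0.169 for sham pairs with each library left out. For the heavy chain alone it was lower, at 0.312 for aneurysm and 0.0523 for sham pairs. For the kappa chain alone it was 0.389 and 0.0414. The direction of 4 single segments turned, and the cause was not tested. Igkv2-109 (-0.40) was 0.027 with DESeq2 and -1.13 (without cPTAA 12) to 0.51 (without sham 5) with a library left out, and Igkv4-57 (1.28) was -0.10 with DESeq2. Ighv4-1 (0.18) was -0.57 without cPTAA 12, 1.20 without sham 5 and -0.29 without sham 8, sham 10 or sham 11. Igkv6-32 (0.89) was -0.058 without cPTAA 3 and sham 1. No paired analysis was possible because the groups share no replicate number. Depth limits the sham values, which rest on 88 to 476 V reads per library.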
